A study of Mus musculus with 8 samples.

Results

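The differential H3K27ac regions on mouse chromosome 10 were described, that is, the regions with chromosome 10 coordinates in the deposited lists of regions increased and decreased in Nrip1 KO myotubes. The chromosome was selected on the share of its regions that had increased, so that share is a description and was not tested. There were 656 such regions of 11180 in both lists. Of these, 453 were increased and 203 were decreased, so that 69.1% were increased (95% Wilson interval 65.4% to 72.5%), whereas 35% of all 11180 regions were increased.

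CUT&RUN, in which an antibody directs a nuclease to cut and release DNA beside its target, was performed on primary myotubes. There were 8 libraries in 4 groups of 2, with an H3K27ac and an IgG library pair for Nrip1 KO and for control cells. The KO cells came from strNrip1-/- mice, made by breeding Nrip1 fl/fl mice (C57BL/6J) with C57BL/6JN mice that express Cre under the muscle creatine kinase promoter, a promoter active in differentiated heart and skeletal muscle. Control cells came from littermates without Cre. Satellite cells of the gastrocnemius were expanded, passaged and differentiated for 4 days. The lists hold no value per library and no transcript level, so neither the deletion nor the cell type could be checked against marker genes. The study used adult mice of both sexes, and the sources used here do not give the sex and age of the animals behind these cultures. Nor do the lists say how replicates varied, and the depth is unknown. The amount of the mark per cell, the number of cells carrying it and the number of copies of the DNA cannot be told apart in these lists.

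H3K27ac is acetylation of histone H3 at lysine 27, a mark of active promoters and enhancers that is laid down by p300 and CBP and removed by histone deacetylases. RIP140, the product of Nrip1, is a nuclear receptor coregulator that in muscle represses genes of fuel and mitochondrial metabolism and that can recruit deacetylases. Most enhancers lie far from the gene they act on, and the gene whose start is nearest is a convention for naming a region and not evidence of regulation.

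The sequence of 5 regions is shown from the GRCm38.p6 assembly, forward strand, because these regions carry the contrasts described here. They are the second intronic region of Slc16a7, a gene of interest to the study, the promoter-proximal region of each direction with the most motif matches (Aig1 and Tspan15), and the promoter-proximal regions of Trdn and Col6a1, which were chosen after their values were seen. Each run holds 300 bases, taken at the centre of the region except for Slc16a7, where it is the first 300 bases of the stretch around the motifs. Capitals mark matches on either strand to AP-1 (TGANTCA), TEAD (NCATTCC), the E-box CAGCTG, RUNX (TGTGGT), the nuclear receptor element AGGTCA or the ERR element TCAAGGTCA, which contains it, or to the MEF2 motif.
Slc16a7, increased (chr10:125325408-125325707): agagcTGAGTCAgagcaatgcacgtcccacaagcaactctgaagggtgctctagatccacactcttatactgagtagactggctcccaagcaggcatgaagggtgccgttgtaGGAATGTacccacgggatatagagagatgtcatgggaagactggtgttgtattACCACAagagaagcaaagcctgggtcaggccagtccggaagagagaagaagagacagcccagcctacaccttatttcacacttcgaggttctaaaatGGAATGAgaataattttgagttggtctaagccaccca
Trdn, increased (chr10:33195648-33195947): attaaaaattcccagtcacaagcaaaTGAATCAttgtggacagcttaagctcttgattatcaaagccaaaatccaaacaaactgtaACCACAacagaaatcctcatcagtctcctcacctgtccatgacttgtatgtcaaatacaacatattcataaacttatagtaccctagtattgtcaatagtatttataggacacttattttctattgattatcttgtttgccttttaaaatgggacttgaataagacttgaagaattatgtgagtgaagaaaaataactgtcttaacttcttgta
Aig1, increased (chr10:13861264-13861563): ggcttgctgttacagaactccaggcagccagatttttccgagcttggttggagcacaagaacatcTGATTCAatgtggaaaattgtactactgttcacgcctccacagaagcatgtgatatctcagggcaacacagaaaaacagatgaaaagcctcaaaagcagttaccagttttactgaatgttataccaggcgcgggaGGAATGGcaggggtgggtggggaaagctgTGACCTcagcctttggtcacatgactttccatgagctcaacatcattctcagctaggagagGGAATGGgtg
Col6a1, decreased (chr10:76725936-76726235): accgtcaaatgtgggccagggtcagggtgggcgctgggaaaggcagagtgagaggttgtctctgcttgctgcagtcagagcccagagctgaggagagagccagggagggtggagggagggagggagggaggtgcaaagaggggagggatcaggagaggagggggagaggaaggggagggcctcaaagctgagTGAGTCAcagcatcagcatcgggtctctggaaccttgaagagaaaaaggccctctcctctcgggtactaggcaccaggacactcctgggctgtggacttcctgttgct
Tspan15, decreased (chr10:62190564-62190863): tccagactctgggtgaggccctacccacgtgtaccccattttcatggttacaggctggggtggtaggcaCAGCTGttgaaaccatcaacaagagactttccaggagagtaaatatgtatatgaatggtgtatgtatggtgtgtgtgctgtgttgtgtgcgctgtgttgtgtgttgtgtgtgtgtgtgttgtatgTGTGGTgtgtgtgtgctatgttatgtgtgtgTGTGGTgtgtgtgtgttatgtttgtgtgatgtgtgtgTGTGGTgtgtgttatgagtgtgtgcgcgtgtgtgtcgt

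The stretch at Trdn had a GC content of 32.0% and that at Col6a1 of 60.7%, values that were known when this pair was chosen. The other stretches did not follow that order, with 48.7% at Slc16a7 and 48.0% at Aig1, both increased, and 47.7% at Tspan15, decreased. The Slc16a7 stretch held 4 matches, namely 1 AP-1 (TGAGTCA), 2 TEAD and 1 RUNX match. In Aig1, a gene for an androgen-induced transmembrane protein, 2 TEAD matches, 1 AP-1 match and 1 nuclear receptor element were found. The 3 RUNX matches of Tspan15, a tetraspanin, lay in a repeat of GT letters, beside 1 E-box. Col6a1 held 1 AP-1 match with the same letters as that of Slc16a7. A match is a description of letters and not a site of binding.

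Along the chromosome, which is 130.7 Mb long, regions were found from position 3517173 to 130239465. Increased regions were found at 3.47 per Mb and decreased regions at 1.55 per Mb. The share of increased regions was not even. Among the 13 windows of 10 Mb with at least 10 regions, the share ranged from 31.0% between 70 and 80 Mb (13 increased, 29 decreased) to 93.9% between 100 and 110 Mb (31 increased, 2 decreased). In the 24 windows of 5 Mb with at least 10 regions the range was 20.0% to 96.0%. Only 4 of these 24 windows had more decreased than increased regions. They lay at 40 to 45 Mb (11 increased, 13 decreased), 60 to 65 Mb (12 and 20), 75 to 80 Mb (6 and 24) and 80 to 85 Mb (15 and 30). In 10 windows over 80% of regions were increased.

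**Figure D1:**
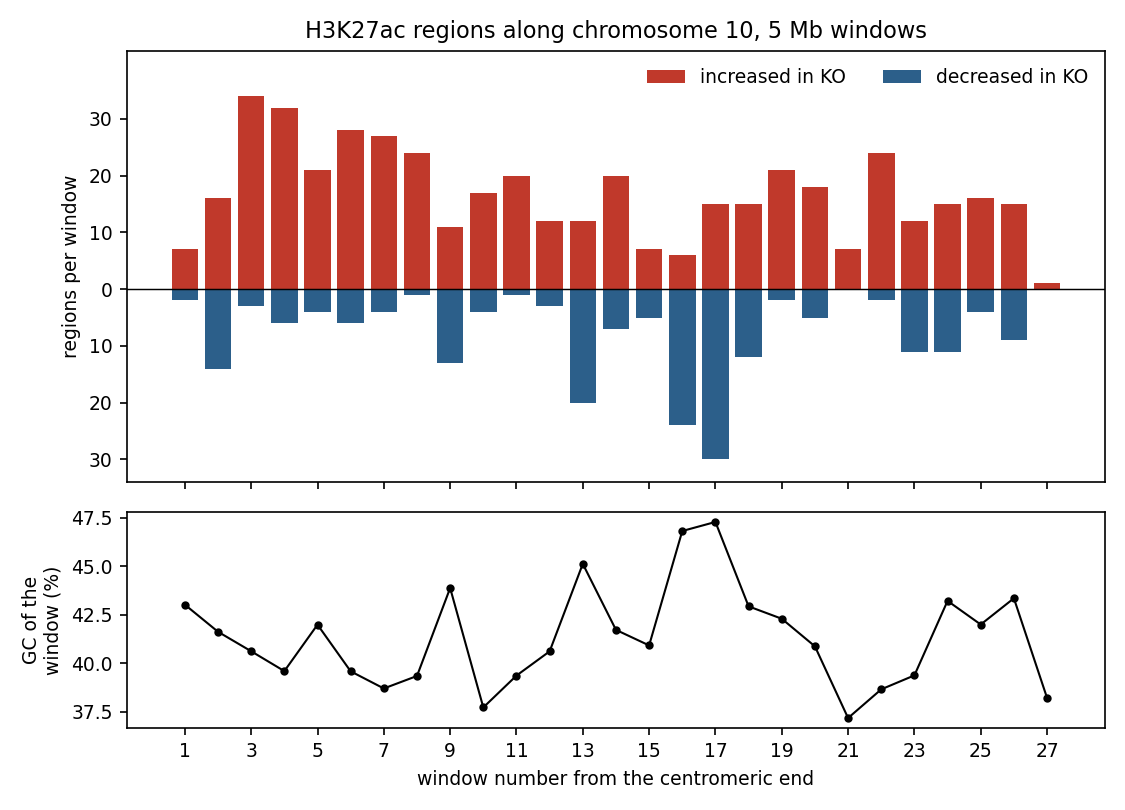
Number of increased (red, up) and decreased (blue, down) regions in each 5 Mb window of chromosome 10, numbered from the centromeric end (upper panel), and the GC content of the window in percent (lower panel). Windows 16 and 17, from 75 to 85 Mb, held 21 increased and 54 decreased regions and had the highest GC content, 46.8% and 47.3%.

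The windows with more decreased regions had a higher GC content than the others, whereas gene number overlapped. The 4 windows had a GC content of 43.9% to 47.3% and held 42 to 144 protein-coding genes. The 10 windows over 80% had a GC content of 37.7% to 42.3% and held 6 to 46 genes. All 20 windows at 50% or above had a GC content of 37.7% to 43.4% and held 6 to 153 genes, the most from 125 to 130 Mb, where 62.5% of regions were increased. Across the 24 windows the share of increased regions and the GC content gave Pearson's r of -0.80 and Spearman's rho of -0.72, and across the 13 windows of 10 Mb r of -0.85 and rho of -0.91. With the number of protein-coding genes the 24 windows gave r of -0.64 and rho of -0.49. Neighbouring windows of 1 chromosome are not independent and share base composition, so these are descriptions without a test.

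The stretch from 75 to 85 Mb held 274 of the 1021 protein-coding genes of the chromosome, and 28.0% of its 75 regions were increased (Wilson interval 19.1% to 39.0%). Outside it 74.4% of 581 regions were increased. Increased regions made up 87.4% of 190 regions from 10 to 40 Mb, where 148 genes lie, 86.0% of 57 regions from 45 to 60 Mb, where 58 genes lie, and 88.6% of 79 regions from 90 to 110 Mb, where 85 genes lie. These stretches were picked after the window counts were seen.

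Single regions differed in base composition in the same order as the windows. The GC content was 41.5% ± 4.67 (SD, n = 453 regions) in increased regions and 48.0% ± 5.26 (SD, n = 203 regions) in decreased regions, a difference of -6.44 percentage points. On the 15 autosomes other than 4, 7, 10 and 16, the same difference was -5.13 points (43.0% ± 5.38 and 48.1% ± 5.20, SD). At promoter-proximal regions of chromosome 10 the GC content was 45.9% ± 6.82 in increased and 54.0% ± 5.84 in decreased regions (SD, n = 45 and 20).

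Regions of like GC content were more often increased on chromosome 10 than on the other 15 autosomes. Under 40% GC, 94.0% of 201 regions on chromosome 10 were increased, against 72.4% of 930 elsewhere. From 40% to 45% GC the shares were 75.9% and 41.2%. Between 45% and 50% they were 52.5% and 20.5%. At 50% or over they were 24.5% and 10.2%. Pooled over GC content, 29.8% of the 7658 regions on those autosomes were increased, and their own shares ranged from 16.2% to 44.9%. The chromosome was chosen on its pooled share, so the gap within each class is a description.

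**Figure D2:**
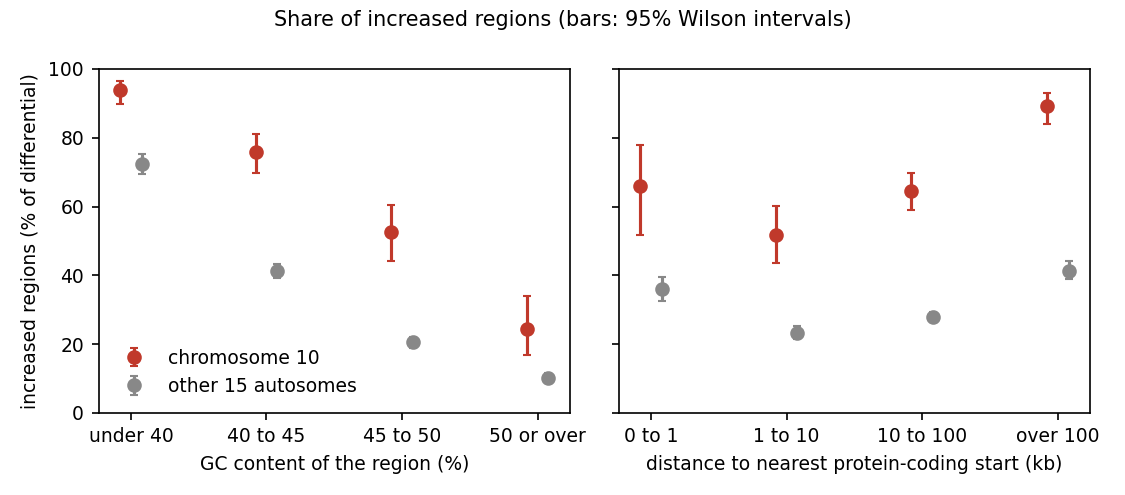
Share of increased regions in percent of differential regions, with 95% Wilson intervals, by GC content of the region in percent (left) and by distance in kb from the region's centre to the nearest protein-coding start (right), for chromosome 10 (red) and the other 15 autosomes (grey). Chromosome 10 lies higher in each class, from 24.5% against 10.2% at 50% GC or over to 94.0% against 72.4% under 40% GC.

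Increased regions lay farther from protein-coding starts. The median distance to a protein-coding start was 59.8 kb in increased regions (quartiles 11.6 and 171 kb) and 16.2 kb in decreased regions (3.82 and 42.5 kb), against 29.2 kb and 17.0 kb on the other 15 autosomes. More than 100 kb separated 36.9% of increased and 9.85% of decreased regions from such a start. Of the 187 regions at that distance 89.3% were increased, whereas 51.8% of the 137 regions at 1 to 10 kb were. The share was 66.0% of 47 regions at up to 1 kb and 64.6% of 285 regions at 10 to 100 kb. It did not rise steadily with distance. On the other 15 autosomes the shares, from the nearest class to the farthest, were 35.9%, 23.3%, 28.0% and 41.4%. With promoter-proximal regions, defined below, set apart first and the others classed by the base at the centre, 44.6% of all increased regions were intergenic and 43.0% intronic, and 31.0% of decreased regions were intergenic and 54.7% intronic. A UTR held 3 increased and 5 decreased regions, a coding exon 0 and 1, and a non-coding exon 8 and 3. The median width was 785 bp in increased and 786 bp in decreased regions, and 27.8% and 22.2% had the shortest width in the lists, 501 bp.

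The promoter share was close between the directions at the distance used, and the comparison depended on that distance. A region was called promoter-proximal when its centre lay at most 1 kb from any annotated start, which held for 45 of 453 increased regions (9.93%, Wilson interval 7.51% to 13.0%) and 20 of 203 decreased regions (9.85%, 6.47% to 14.7%). Fisher's exact test, two-sided, gave an odds ratio of 1.01 (p = 1, and adjusted p = 1 by Benjamini-Hochberg over 3 such tests). Of the 45 and 20 regions, 31 and 15 had a protein-coding start as the nearest. At 0.1 kb the odds ratio was 2.04, from 9 and 2 regions (adjusted p = 0.741 in the exact test), and at 2.5 kb it was 0.651, with 16.8% of increased and 23.6% of decreased regions (p = 0.0408, adjusted p = 0.0612 in the exact test). The unit of these tests is the region, so they describe the lists and not replicate cultures.

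Against all other chromosomes, increased regions on chromosome 10 were less often at promoters, with 9.93% against 15.8% of 3464 (odds ratio 0.586, adjusted p = 0.00238 in Fisher's exact test). This call was lost without chromosomes 4, 7 and 16, whose own shares of increased regions also stand apart, where the odds ratio was 0.721 (adjusted p = 0.163), and with a distance of 0.1 kb (0.847, adjusted p = 0.741), both in the same exact test. Decreased regions were at promoters in 9.85% on chromosome 10 and in 11.3% of 7059 elsewhere (odds ratio 0.861, adjusted p = 0.977 in the exact test).

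Neighbouring regions often had the same direction, and more so when they were close. Of the 655 pairs of neighbours, 494 had one direction (75.4%, Wilson interval 72.0% to 78.6%), with 372 pairs increased and 122 decreased. With a gap of at most 10 kb the share was 91.2% of 91 pairs, and on the other 15 autosomes 91.4% of 1085. With a gap over 500 kb it was 69.7% of 66 pairs on chromosome 10 and 53.7% of 910 elsewhere. A chromosome with more regions of one direction has more such pairs, so the shares at wide gaps carry the imbalance by which the chromosome was chosen.

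**Figure D3:**
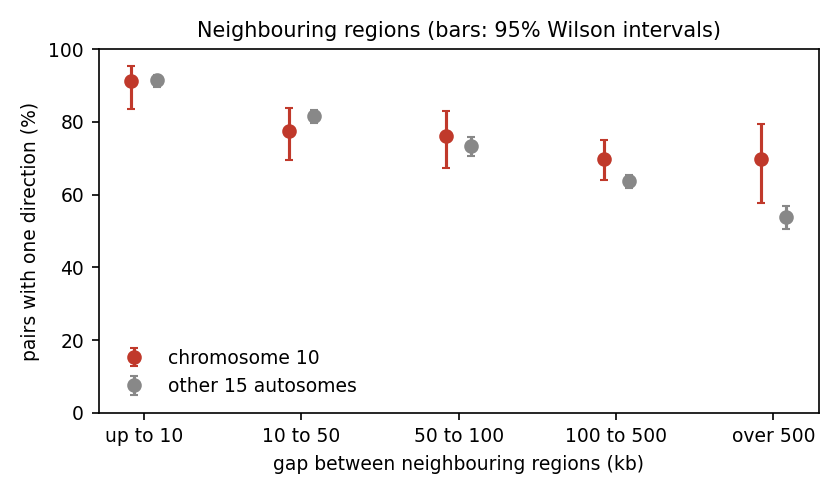
Share of neighbouring regions that have the same direction, in percent with 95% Wilson intervals, by the gap between them in kb, for chromosome 10 (red) and the other 15 autosomes (grey). On chromosome 10 the share was 91.2% at gaps up to 10 kb and 69.7% at gaps over 500 kb.

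A run was counted as consecutive regions of one direction. The chromosome held 162 runs, 81 in each direction. Runs of 10 or more regions numbered 16 for increased regions, with 264 regions (58.3% of those increased), and 3 for decreased regions, with 42 regions (20.7%). A chromosome with more regions of one direction tends to have longer runs of it. These counts therefore carry the imbalance by which the chromosome was chosen. On the other autosomes compared, the longest increased run of each held 5 to 20 regions (median 10). The longest decreased run held 11 to 66 (median 30). On this chromosome the longest runs held 31 increased and 21 decreased regions, the first above and the second within these ranges. Single regions between neighbours of the other direction were 26 increased and 40 decreased.

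**Figure D4:**
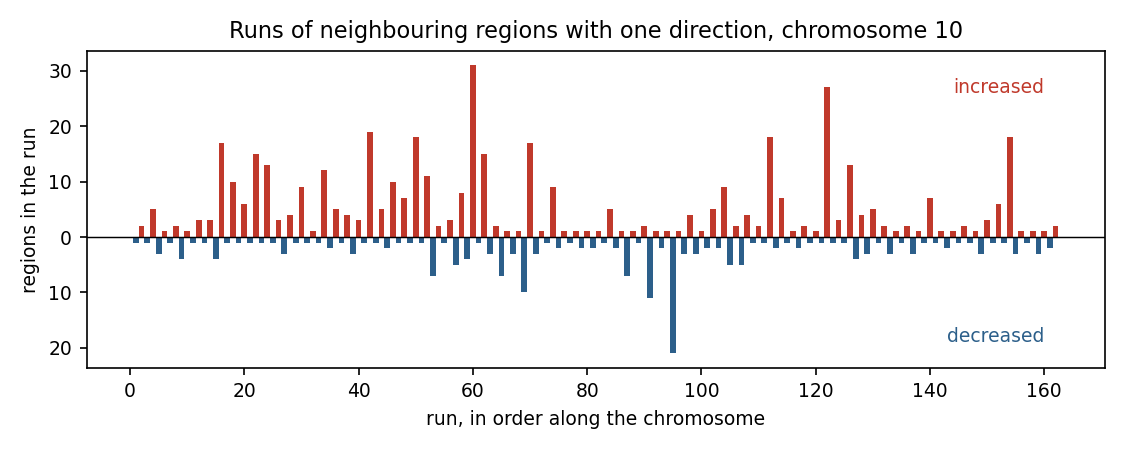
Number of regions in each run of one direction, in order along chromosome 10, with increased runs upward (red) and decreased runs downward (blue). The longest increased run held 31 regions and the longest decreased run 21.

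The longest increased run held 31 regions from 46186173 to 53259259 and reached 10 genes. Among them were Grik2, a kainate receptor subunit, Hace1, a ubiquitin ligase, Sim1, a transcription factor, and Vgll2, a cofactor of TEAD factors in muscle. The second held 27 regions from 96955631 to 107454211 and reached 16 genes. These included Dcn, encoding decorin, the ERK phosphatase Dusp6, the plasma membrane calcium pump Atp2b1, the propionyl-CoA synthetase Acss3 and the myogenic factor Myf5. The third held 19 regions from 26174636 to 29640389 with Lama2, the receptor phosphatase Ptprk and the Wnt agonist Rspo3. Mean GC content of the regions was 38.2%, 41.2% and 39.9% in these runs, and 4 of their 77 regions were promoter-proximal.

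The longest decreased run was shorter in distance and denser in genes. It held 21 regions from 79929700 to 82655474, within 2.73 Mb, and reached 19 genes. Among them were the ATP synthase subunit Atp5d, the lipid peroxide reductase Gpx4, the E protein Tcf3, the histone methyltransferase Dot1l, the kinase Map2k2, the corepressors Aes and Tle2 and the factors Nfic, Zbtb7a and Arid3a. The next held 11 regions from 76456578 to 78104227 with Col6a1, Col18a1 and Adarb1, an RNA editing enzyme. The third held 10 regions from 61447465 to 62327905 with Col13a1, Tspan15, the translation inhibitor Eif4ebp2 and hexokinase 1 (Hk1). Mean GC content was 54.5%, 50.7% and 53.0%, and 12 of the 42 regions were promoter-proximal.

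Taken by nearest protein-coding start, 196 of 1021 genes of chromosome 10 (19.2%) were nearest to an increased region and 144 (14.1%) to a decreased region, with 46 nearest to both and 727 to neither. Over the genome, 10.6% and 17.8% of 21938 protein-coding genes were nearest to an increased and a decreased region. Of the 294 genes reached, 151 had 1 region. At least 5 increased regions fell to 23 genes, and at least 5 decreased regions to 2 genes.

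The genes with the most increased regions were Nedd1, a centrosomal protein gene, and Cited2, a p300/CBP-binding coregulator, each with 12. All 12 regions of Nedd1 lay outside the gene, the nearest at 65558 bp, and 10 of them formed a group from 92366716 to 92651470 in which each gap was at most 100 kb. The nearest increased region of Cited2 lay 135617 bp from its start. Nkain2, encoding a protein that interacts with a Na+/K+-ATPase subunit, and Grik2 had 10 each. By their centres, the 10 of Nkain2 all lay inside the gene and 2 of Grik2 did. Lrig3, a transmembrane protein gene, Prep, encoding prolyl endopeptidase, and Marcks had 8 each. All 8 of Prep lay outside the gene, the nearest at 41550 bp, whereas its 1 decreased region lay inside the gene, at 21610 bp from a start.

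Among decreased regions, Col13a1 and Stab2 had 5 each, and Syne1, Ank3, Nav3, Rgs17 and Sash1 had 4 each. Col13a1, which encodes a transmembrane collagen of the neuromuscular junction, had all 5 inside the gene and no increased region. Stab2, a scavenger receptor gene, was nearest to 4 decreased regions within 13.7 kb, from 87007265 to 87020975, 1 of them 194 bp from an annotated start. The gene lies on the minus strand with its upstream end at 87008025, so most of that stretch is outside it. Of its 5 decreased regions 2 lay inside the gene. Its 2 increased regions both lay inside, at 86859843-86860469 and 86890326-86890826, the latter 229 bp from another annotated start.

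The widest increased region spanned 8380 bp at Nkain2 (32882677-32891056). Its centre lay in an intron, 2829 bp from a start, and the region ran past the upstream end of the gene at 32890462. The next spanned 5261 bp, 374343 bp from Cited2, then 4656 bp, 166822 bp from Nedd1. The fourth spanned 3636 bp in an intron of Foxo3 (42260126-42263761), a transcription factor of the atrophy programme. The widest decreased regions were 3384 bp near Lyz1, encoding lysozyme, 3367 bp in an intron of Sgta, a chaperone partner, 2944 bp within Lrp1, an endocytic receptor gene, and 2921 bp between genes near Pcbd1.

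Slc16a7 (125219270-125389465, minus strand) is the gene of monocarboxylate transporter 2, which carries lactate and pyruvate. The paper places it among genes of neuromuscular junction formation, from an overlap of increased H3K27ac peaks with genes upregulated in KO gastrocnemius. It had 2 increased and 0 decreased regions, which come from those same H3K27ac data and are no independent observation. The first was 1760 bp wide (125265398-125267157), 42538 bp from the nearest start, with a GC content of 43.2%. The second was 501 bp wide (125325323-125325823), 2962 bp from the nearest start, with a GC content of 52.1%, and holds the sequence printed above. Both lay in introns, in an increased run of 18 regions from 123251601 to 126799161 that also reached Fam19a2, Lrig3 and Atp23.

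Across 6 lists with 135 genes of the chromosome, 44 genes were nearest to increased regions only, 19 to decreased regions only, 14 to both and 58 to neither. The lists were written with earlier results of these data known and favour genes of interest in muscle, so their share among reached genes is no result about them. Counts by list are given with values for the genes with a region within 1 kb first.

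**Figure D5:**
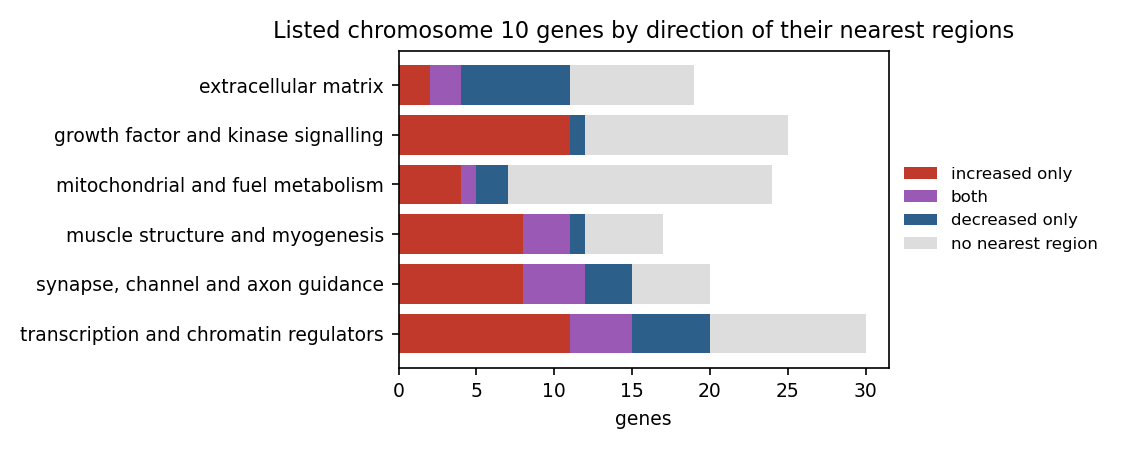
Number of genes of 6 lists on chromosome 10 that were the nearest protein-coding gene to increased regions only (red), to both (purple), to decreased regions only (blue) or to no region (grey). In the growth factor and kinase list 11 of 25 genes had increased regions only and 1 decreased regions only. In the extracellular matrix list these numbers were 2 and 7 of 19. Over all protein-coding genes of the chromosome they were 150 and 98 of 1021.

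Of 17 genes of muscle structure and myogenesis, 8 had increased regions only, 1 decreased only and 3 both. Trdn (33080554-33476709), whose product triadin anchors calsequestrin at the calcium release channel, had 4 increased regions, one of them 2280 bp wide and 170 bp from an annotated start (33194658-33196937). Csrp2, a LIM domain protein gene, had an increased region of 1763 bp 7 bp from its start. Lama2, the laminin chain of the muscle basement membrane, had 7 increased regions, one 915 bp from its start. Vgll2 had 6 increased regions, none inside the gene and the nearest at 11030 bp. Utrn, the dystrophin homologue, had 6 increased regions, 1 of them inside the gene and the nearest at 6989 bp from a start. Its 1 decreased region lay inside the gene, 2409 bp from a start. Syne1, which links nuclei to the cytoskeleton, and Ank3, encoding ankyrin-G, had more decreased (4 each) than increased regions (1 and 2). Of the adjacent myogenic factors, Myf5 was nearest to 1 increased region at 32173 bp and Myf6 to 1 decreased region at 68237 bp. Within 100 kb of a start, both genes had 1 increased and 1 decreased region, so this contrast comes from the nearest-start rule.

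Counted instead as any region within 100 kb of a start, 16 of these 17 genes had an increased and 7 a decreased region. Over all 1021 protein-coding genes of the chromosome, 332 (32.5%) and 375 (36.7%) did. The lists were written with earlier results known, so such differences are no result about the listed genes. Pln, encoding phospholamban, Mybpc1, Myl6 and Myl6b, which were nearest to none, each had 1 increased region by this count. By the same count, 6 of 19 extracellular matrix genes had an increased and 8 a decreased region, as had 19 and 9 of 30 transcription and chromatin regulators and 13 and 6 of 20 genes of synapses, channels and axon guidance.

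Of 19 extracellular matrix genes, 2 had increased regions only, 7 decreased only and 2 both. Decreased regions lay at 3 collagen genes. Col6a1, a chain of microfibrillar collagen VI, had 1, of 2046 bp (76725063-76727108) and 82 bp from its start. Col13a1 had 5, the closest 374 bp from a start, and Col18a1 had 2 inside the gene, the nearest 7943 bp from its start and the other promoter-proximal to a pseudogene start, at 634 bp. Timp3, a metalloproteinase inhibitor, had 3 decreased regions, and P4ha1, a collagen prolyl hydroxylase subunit, had 1. Ccn2, encoding connective tissue growth factor, had an increased region 665 bp from its start and 2 decreased regions over 100 kb away, at 101935 bp and 136594 bp.

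Of 24 mitochondrial and fuel metabolism genes, 17 (70.8%) were nearest to no region, as were 71.2% of all protein-coding genes of the chromosome. By nearest start 5 had an increased and 3 a decreased region, but within 100 kb of a start 7 had an increased and 14 a decreased region. Over all protein-coding genes of the chromosome, 32.5% had an increased and 36.7% a decreased region within 100 kb. Tfam, the mitochondrial transcription factor, had an increased region of 910 bp 696 bp from an annotated start (71235891-71236800). Acss3 had 3 increased regions, the closest 56 bp from its start. Decreased regions lay 565 bp from a start of Hk1 and 918 bp from a start of Atp5d.

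Of 25 growth factor and kinase signalling genes, 11 had increased regions only and 1, Lrp1, decreased regions only. Esr1, the oestrogen receptor, had 5 increased regions, all inside the gene, and Ptprk had 4. Igf1, the muscle growth factor, had 1 increased region 10881 bp from its start, Dusp6 had 1 at 12016 bp, and Socs2, an inhibitor of cytokine and growth hormone signalling, had 1 at 2248 bp. The Wnt pathway genes Rspo3, Lgr5 and Wif1, of which the first and second act as ligand and receptor and the last as an inhibitor, had 2 increased regions each. By nearest start 0 of these 25 genes had regions of both directions, and within 100 kb of a start 4 did. Within that distance 14 of them had an increased and 6 a decreased region, against 32.5% and 36.7% of all protein-coding genes of the chromosome. With genes listed after earlier results were known, this difference is no result about them.

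Of 30 transcription and chromatin regulators, 11 had increased regions only, 5 decreased only and 4 both. Increased regions lay within 1 kb of a start of Egr2 (282 bp), Tet1, the methylcytosine oxidase (848 bp), E2f7 (610 bp), Stat6 (584 bp) and Nab2, a corepressor of EGR factors (586 bp). Stat6 and Nab2 adjoin each other, and their 3 regions lay within 27.1 kb, of which the middle, centred where the ends of both genes overlap, was decreased. The deacetylase gene Sirt1 had 1 increased region 1007 bp from a start. Hivep2 had 6 increased and 1 decreased region, and Hmga2, Tcf3, Elk3, Nfic and Nfyb had decreased regions only.

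Of 20 genes of synapses, channels and axon guidance, 8 had increased regions only, 3 decreased only and 4 both. Plxnc1, a semaphorin receptor, had an increased region 353 bp from a start, and Cdh23, a cadherin, had a decreased region 506 bp from a start. Lrrtm3 had 7 increased regions, 3 of them inside the gene, Atp2b1 had 5 and Avpr1a, the vasopressin receptor, had 4. Marcks, a protein kinase C substrate, had 8 increased regions and 1 decreased region 549338 bp away.

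At least 2 regions of each direction fell to 9 genes, namely Ank3, Arid5b, Atxn7l3b, Btg1, Cand1, Dyrk2, Nav3, Nuak1 and Stab2. Nav3, a neuron navigator gene, had 5 increased and 4 decreased regions, of which 3 and 4 lay inside it. For Btg1, an antiproliferative factor, the 2 increased and 2 decreased regions alternated along the chromosome and the nearest of each lay 231115 bp and 237240 bp from the start.

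Motif matches were sought in the middle 500 bp of every region, and the intervals of the directions overlapped for each motif except the E-box. AP-1 matches were found in 25.8% of increased regions (Wilson interval 22.0% to 30.0%) and 17.7% of decreased regions (13.1% to 23.6%), against 20.2% of all regions in the lists. The E-box CAGCTG, the preferred site of myogenic factors, was found in 23.6% (19.9% to 27.7%) and 37.9% (31.5% to 44.8%), against 34.7% of all. TEAD matches were found in 27.2% and 28.6%, RUNX in 32.0% and 40.9%, the nuclear receptor element in 20.97% and 28.6%, ERR in 0.66% and 1.97%, and MEF2 in 2.65% and 0.49%. The shares in all regions were 28.5%, 35.8%, 29.7%, 1.22% and 1.84%. All regions pool both directions and are mostly decreased. On the other autosomes used for comparison, the E-box was found in 28.9% of increased and 37.8% of decreased regions. AP-1 matches were found there in 24.7% and 18.3%. The order of the directions there was the same as on this chromosome for every motif except TEAD (31.7% and 27.4%). The base composition of the directions differs, as given above, and its part in these shares was not tested.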

How the data were processed

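The data are 2 lists of regions from CUT&RUN for H3K27ac in primary myotubes, with 8 libraries in 4 groups of 2. The authors aligned reads to mm10 with BWA-MEM2 (2.2.1, listed as BWA in the labels), used HOMER (4.11) for broad peaks and listed regions that differed by 2-fold between KO and control. How replicates and IgG libraries entered is not given in the sources used here. The labels and the methods name different suppliers of the antibody. The deposited score is constant and was not used, and the other deposited columns are positions. Depth is unknown, and intervals cover counting error over regions only.

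Intervals were taken as half-open, are printed counted from 1, and lay within the lengths of GRCm38.p6. Starts and genes were taken from GENCODE M21. GC content and motifs (7, both strands) were read from GRCm38.p6. The nearest protein-coding start to a region's centre named its gene. Promoter-proximal meant at most 1 kb from any start. The 3 promoter shares were compared with two-sided Fisher's exact tests (scipy 1.17.1, Python 3.11.15), with Benjamini-Hochberg adjustment, and called at 0.05. Everything else was described without a test, since the chromosome was selected on the direction of its regions. Chromosomes 4, 7 and 16, with 7.53%, 97.7% and 7.80% increased regions, were left out of the comparison autosomes. Scripts were tested on simulated data. The chromosome and the gene lists were chosen with earlier results of these data known. Genes named were Slc16a7, the 6 per direction with the most regions (ties cut by bases covered, with tied genes also named), those of the 4 widest regions and 3 longest runs per direction, listed genes nearest to a region, and genes with at least 2 regions of each direction. Alternatives were the distance, the gene set, the base rule, joining, the region width and the chromosomes compared.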

Additional observations from a re-analysis of the deposited data

How the results depend on the processing

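No paired analysis was possible because the lists hold no value per replicate, and for the same reason no replicate could be left out. Of 42 values recomputed under an alternative, 30 kept their direction and side of the threshold or stayed within their spread. The odds ratio of the promoter share between directions, 1.01 as reported, lay below 1 at 2.5 kb (0.651, adjusted p = 0.0612 in Fisher's exact test), with protein-coding starts only (0.859), with any base of the region (0.941) and with regions within 10 kb joined (0.983), and above it at 0.1 kb (2.04), and none of these passed the threshold. The odds ratio for decreased regions against other chromosomes was 1.18 at 2.5 kb (adjusted p = 0.336 in the exact test). The call for increased regions against other chromosomes was lost at 0.1 kb (0.847) and without chromosomes 4, 7 and 16 (0.721). The cause was not tested. With regions at least 1 kb wide only, 70.5% of neighbours shared a direction and 6 runs held 10 or more regions, against 19. With the nearest start among all annotated genes, 108 genes were nearest to an increased region and 14 to both, against 196 and 46, since fewer regions then have a protein-coding gene as nearest. Listed genes with a decreased region numbered 50 within 100 kb, against 33.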
